A study of Mus musculus with 18 samples.

Results

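Pcmt1, Pcmtd1 and Pcmtd2 make up the isoaspartyl methyltransferase family of the mouse, and the 3 genes lie on 3 of the 52179 loci with a gene symbol in the deposited count table. Every locus whose symbols held one of the 3 names was taken. The family was chosen by the normalized counts of the Pcmtd1 locus in whole cell miR-92b pulldowns against the other whole cell samples, so these contrasts are given as a description, with no test. RNA came from Neuro2A (N2A), a mouse neuroblastoma line of wild-type genotype. Biotin-tagged miR-92b or a biotin-tagged scrambled sequence (Scr) was transfected at 25 nM and pulled down from lysates of isolated nuclei or of whole cells. Control cultures are described in the study as untransfected, while the labels give 1 transfection protocol for every sample, controls included. The 3 treatments in 2 compartments gave 6 groups of 3 samples, 18 in all, sequenced as poly(A)-selected RNA. A PCR check of the pulldown was drawn from repeated experiments, but whether the sequenced samples of a group were separate cultures is not stated, so the p-values measure the spread between these samples, which may be technical, in 1 cell line.

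Pcmt1 encodes the protein-L-isoaspartate O-methyltransferase, which starts the repair of aged proteins in which aspartate or asparagine has turned into isoaspartate, with S-adenosylmethionine (AdoMet) as the methyl donor. The enzyme is abundant in brain, and mice without it build up damaged proteins and have seizures. Pcmtd1 and Pcmtd2 encode relatives with a methyltransferase domain followed by a SOCS box, a motif that binds elongin B and C and links a protein to a cullin ubiquitin ligase. The SOCS box members are described first, and the repair enzyme after them.

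The Pcmtd1 locus lay in the region chr1:7088920-7173628, on the plus strand of GRCm38 (mm10), with 7 transcription start sites in the authors' annotation. It also held Gm38372, a gene model inside Pcmtd1 without a known product, and reads of the 2 could not be separated. Gm26983, a processed pseudogene on the other strand of this region, had group means of 0.93 to 8.25 normalized counts. Pcmtd2 spanned chr2:181837854-181857679 on the plus strand with 7 start sites. Pcmt1, on the minus strand with 5 start sites, lay in the region chr10:7629373-7681136. The annotation gave the same region for Nup43 on the opposite strand, so it may reach beyond either gene. The library kit kept strand, but whether the counting used it is not given in the sources used here. Reads of Pcmt1 and Nup43 therefore cannot be told apart wherever the 2 genes overlap. By mean normalized count, the 3 loci stood at the 91.6th (Pcmtd1), 63.9th (Pcmtd2) and 79.4th (Pcmt1) percentile of the 15579 loci that were tested. The coding sequences of Pcmtd1 and Pcmtd2 were 69.1% identical over 1047 aligned bases. Pcmt1 was 62.6% identical to Pcmtd1 and 62.1% identical to Pcmtd2. The 3 genes shared 0 stretches of 50 bases with each other.

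A microRNA pairs with its targets mainly through its seed, bases 2 to 8, and the sequence of the tagged microRNA is therefore set beside the single matching stretch in the family. Both are written 5′ to 3′, with the seed or its match in capitals. The mature mouse sequence comes from RefSeq (GRCm38.p6, chr3:89227126-89227147, minus strand), and the stretch from the GENCODE M21 transcript Pcmtd1-201 on GRCm38.
mmu-miR-92b-3p: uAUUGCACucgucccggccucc
Pcmtd1 match: ccgggcaacgtatgaGTGCAATa
The seed of miR-92b-3p is shared with miR-25-3p, miR-32-5p, miR-92a-3p, miR-363-3p and miR-367-3p. The letters GTGCAAT were searched on the transcript strand alone, in every annotated transcript of the family. Pcmtd1 held 1 match, at chr1:7170346-7170352 in the last of its 6 exons, beginning at base 464 of a 3′ UTR of 3746 bases and followed by an A. The same stretch was part of the noncoding transcripts Pcmtd1-206, Pcmtd1-207 and Pcmtd1-208. Pcmtd2, Pcmt1 and Gm38372 held 0 matches. Among 20890 genes with a complete coding transcript and a 3′ UTR, 6.58% held the letters in the longest one. Among 1838 of them with a 3′ UTR of 0.8 to 1/0.8 times the length of that of Pcmtd1, 16.8% did.

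Reads on loci with a symbol numbered between 3752991 and 22920037 per sample. In the summed normalized counts, nuclear RNAs were higher in nuclei (117528 to 150215) than in whole cells (32720 to 85155), and cytoplasmic mRNAs were lower (3761 to 13554 against 30195 to 131025). Of 14 neuronal and neuroblastoma markers, 13 were in the annotation, with sums of 5022 to 6060 over all samples, and 10 were among the tested loci. Nefl, a neurofilament gene, was at 0 in every sample, and Nefm, another, had a mean of 0.14. Markers of other cell types summed to 129 to 326. Whole cell miR-92b sample 3 stood apart, with the lowest sum of nuclear RNAs, the highest sum of cytoplasmic mRNAs and 4.51% of its reads on loci without a symbol, against 8.06% to 15.3% in the other samples.

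The Pcmtd1 locus was high in whole cell miR-92b samples and in no other group. Its normalized counts there, the reads on the locus divided by a size factor per sample, were 2188, 4905 and 1609.9 in samples 1, 2 and 3. Whole cell Scr samples had 548.0, 427.3 and 629.1, and whole cell control samples 679.7, 483.4 and 438.9. The lowest miR-92b sample was thus above the highest sample of either comparison group, and the ratio between single miR-92b and Scr samples ran from 2.56 to 11.5. The mean was 2901 ± 1759 for miR-92b, 535 ± 102 for Scr and 534 ± 128 for control (SD, n = 3). On the scale of log2(normalized count + 1), where differences of low loci depend on the added 1, miR-92b was above Scr by 2.29 and above control by 2.30. Over all tested loci, 4.32% had miR-92b samples all above the Scr samples and 3.21% had them all above control. By limma, 1 of the 15579 tested loci (0.00642%) had an adjusted p below 0.05 in each of the 2 contrasts. The number of loci depended on the method, and DESeq2 called 176 against Scr and 21 against control. These values are no test of Pcmtd1, because the samples of both contrasts chose it. The 3 high samples rested on 2432, 3435 and 2526 reads. Without sample 2, the highest, the difference from Scr was 1.83, and without sample 3, which stood apart, it was 2.63.

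**Figure D1:**
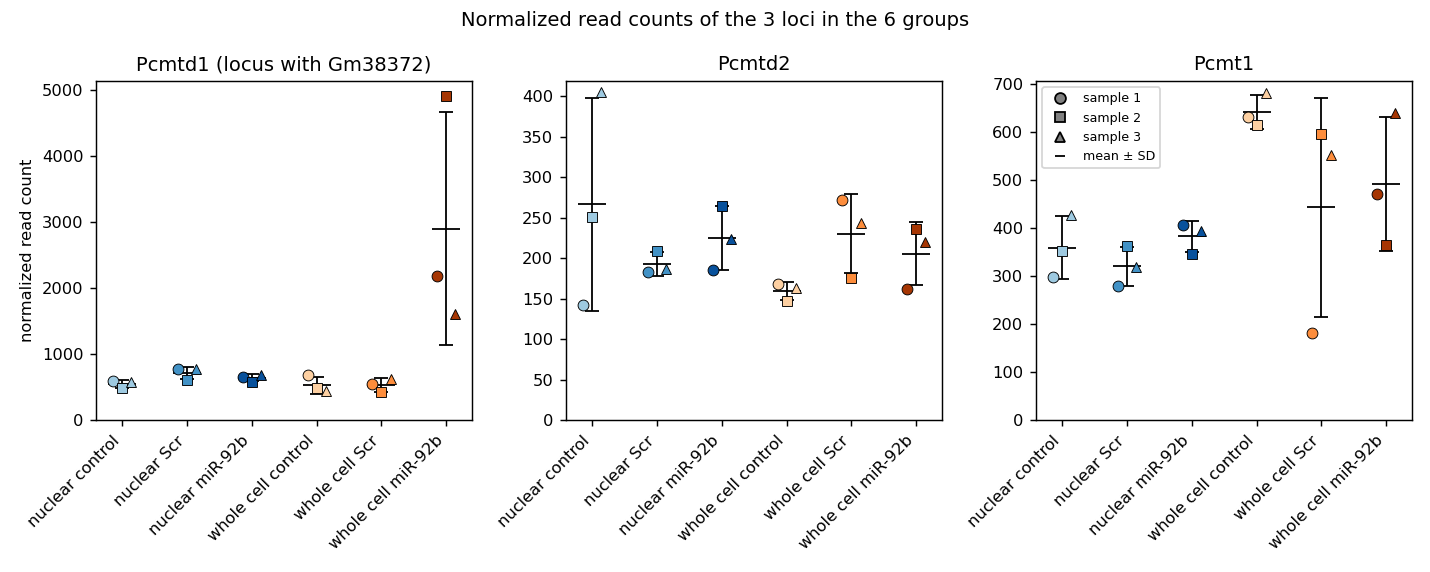
Normalized read counts (vertical axes, each from 0) of the 3 loci in the 6 groups. Symbols are samples 1 to 3 and bars are the mean ± SD. The whole cell miR-92b samples of Pcmtd1 lie between 1609.9 and 4905 while the other 15 samples lie between 427.3 and 776.8, and Pcmtd2 and Pcmt1 have no group that stands apart in this way.

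In nuclei, the Pcmtd1 locus did not show this difference. The nuclear miR-92b samples had normalized counts of 659.7, 583.5 and 688.0, nuclear Scr samples 772.4, 616.9 and 776.8, and nuclear control samples 597.9, 488.1 and 574.3. The miR-92b samples overlapped with both other groups. Their mean of 644 ± 54.0 lay between those of Scr (722 ± 91.1) and control (553 ± 57.8). The log2 difference was -0.16 from Scr (SE 0.28, 95% interval -0.74 to 0.42, limma adjusted p = 1.0) and 0.22 from control (SE 0.28, interval -0.36 to 0.80, adjusted p = 1.0). The difference between the nuclear and the whole cell contrast was not tested, because the whole cell samples chose the locus. Within miR-92b, nuclei minus whole cells gave -2.01 on the log2 scale, with no overlap, as 16.5% of all loci had in that direction. That contrast holds the samples by which the locus was chosen.

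None of the members passed the limma test between miR-92b and Scr in nuclei. By limma 0 of the 3 members had an adjusted p below 0.05 and 0 had an unadjusted p below 0.05. edgeR and DESeq2 gave 0 as well. In the background, limma called 0.0% of the 15579 loci and gave 687 of them an unadjusted p below 0.05. For nuclear miR-92b against nuclear control the counts of members were the same, with 0.0% of all loci called and 50 at an unadjusted p below 0.05.

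The Pcmtd1 counts of the other 15 samples ranged from 427.3 to 776.8 with a median of 597.9 and a mean of 598 ± 109. In the order of the group means, whole cell miR-92b was followed by nuclear Scr, nuclear miR-92b, nuclear control, whole cell Scr and whole cell control, and every neighbouring pair after the first overlapped. Nuclear Scr samples were all above nuclear control samples, a separation that 3.74% of all loci had in that direction, and the log2 difference of 0.38 did not pass the test (SE 0.28, limma adjusted p = 0.935). In whole cells, Scr and control differed by 0.01 (SE 0.28, adjusted p = 1.0).

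FPKM, the authors' read density by transcript length and library size, gave a larger difference for Pcmtd1 than the counts did. The whole cell miR-92b samples had 89.8, 260.2 and 87.4 FPKM, and the other 15 samples 9.51 to 31.7. The ratio of the group means, miR-92b over Scr, was 9.24 by FPKM and 5.42 by normalized count, and the log2 difference was 3.01 by FPKM. The normalized count divided by the FPKM, scaled on 2393 loci with 1 transcript, gives the transcript length that the authors' estimate implies. For Pcmtd1 this length was 3323, 2505 and 2466 nucleotides in the 3 whole cell miR-92b samples. It was 4716 ± 972 nucleotides over the other 15 samples, which ranged from 2850 to 6623, so sample 1 lay inside that range and samples 2 and 3 below it. The annotated coding transcript Pcmtd1-201 has 5232 nucleotides, Pcmtd1-207 has 4207, Pcmtd1-208 has 3986 and Pcmtd1-206 has 2659. Which transcripts the reads came from was not tested. The implied length of the other members did not set this group apart, with 1994 ± 713 nucleotides for Pcmtd2 and 1478 ± 240 for Pcmt1, against 2129 ± 606 and 1580 ± 170 over the other 15 samples.

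**Figure D2:**
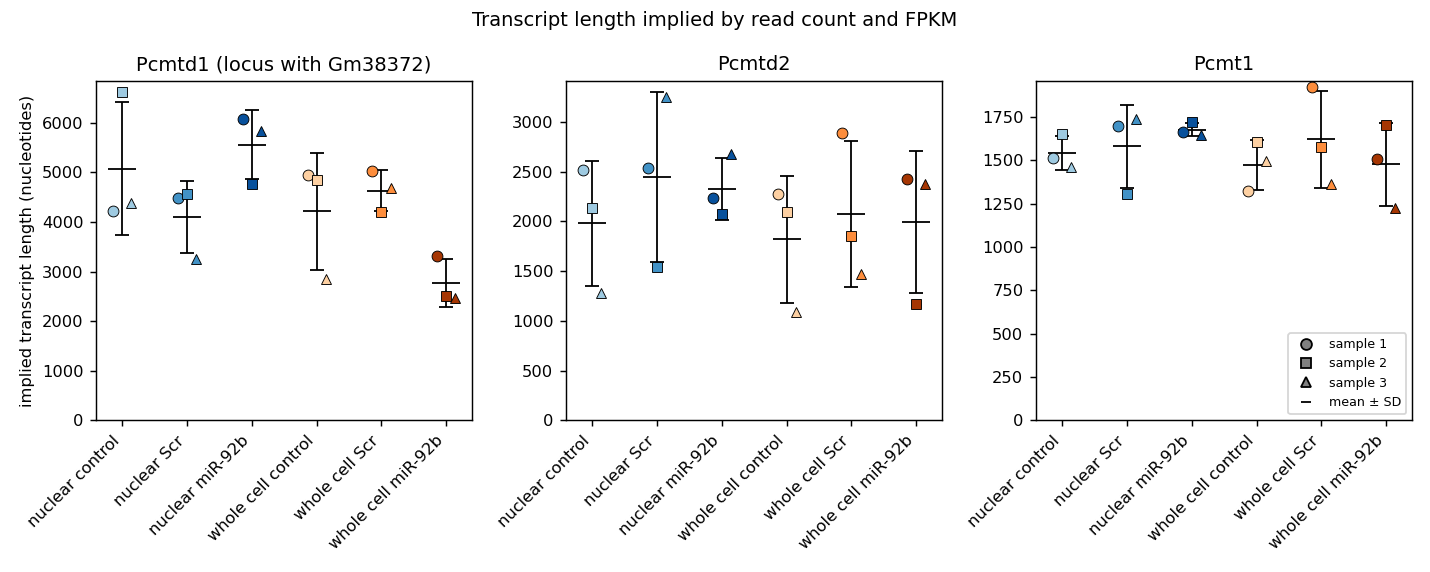
Transcript length in nucleotides (vertical axes, from 0) implied by normalized count and FPKM for the 3 loci in the 6 groups, with samples as symbols and mean ± SD as bars. The whole cell miR-92b samples of Pcmtd1 lie at 2466 to 3323, the highest of them inside the range of the other 15 samples (2850 to 6623). The groups of Pcmtd2 and Pcmt1 overlap.

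Pcmtd2, the closest relative of Pcmtd1, was not high in whole cell miR-92b samples. Its normalized counts there were 162.0, 235.6 and 219.9, against 271.8, 176.2 and 243.6 in Scr samples and 168.2, 147.0 and 163.7 in control samples. The miR-92b samples overlapped with both of these groups. The log2 difference was -0.16 from Scr and 0.35 from control, where Pcmtd1 had 2.29 and 2.30. In nuclei, Pcmtd2 had 185.8, 264.3 and 223.8 for miR-92b, 182.8, 209.5 and 186.6 for Scr, and 143.0, 251.4 and 405.0 for control. The miR-92b samples overlapped with both groups. They differed by 0.21 from Scr (SE 0.34, 95% interval -0.50 to 0.91, limma adjusted p = 1.0) and by -0.14 from control (SE 0.34, adjusted p = 1.0). Nuclear control sample 3 was the highest of all 18, and without it the difference from nuclear control was 0.23.

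The groups of Pcmtd2 ran from 160 ± 11.2 in whole cell control to 266 ± 132 in nuclear control. Whole cell Scr (231 ± 49.1), nuclear miR-92b (225 ± 39.3), whole cell miR-92b (206 ± 38.8) and nuclear Scr (193 ± 14.4) came between them. Of the neighbours in that order, nuclear Scr and whole cell control did not overlap and the others did. In whole cells, the Scr samples of Pcmtd2 were all above control, as 5.78% of all loci were, and the log2 difference of 0.51 did not pass the test (SE 0.34, limma adjusted p = 0.958). In nuclei, Scr differed from control by -0.34 (SE 0.34, adjusted p = 0.964), and by 0.02 without nuclear control sample 3.

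Pcmt1, the repair enzyme itself, was likewise not set apart by miR-92b. In whole cells, its normalized counts were 471.5, 364.1 and 640.5 for miR-92b, 182.4, 596.4 and 551.6 for Scr, and 631.5, 613.9 and 681.3 for control. The miR-92b samples overlapped with both groups, with log2 differences of 0.29 from Scr and -0.42 from control. The first of these rested on Scr sample 1, the lowest of all 18 samples, and was -0.26 without it. Nuclear samples had 407.0, 347.2 and 394.8 for miR-92b, 280.3, 362.5 and 319.0 for Scr, and 297.5, 353.6 and 427.2 for control. The 3 nuclear groups overlapped. Nuclear miR-92b differed by 0.26 from Scr (SE 0.32, 95% interval -0.40 to 0.92, limma adjusted p = 1.0) and by 0.10 from control (SE 0.32, adjusted p = 1.0).

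In whole cells, the 3 Scr samples of Pcmt1 were all below control, as 7.71% of all loci were. The log2 difference was -0.71 (SE 0.32), with a limma adjusted p of 0.957 and an unadjusted p below 0.05. Without Scr sample 1 it was -0.16. No locus was called in that contrast by limma or edgeR (0.0%, with 793 and 619 loci at an unadjusted p below 0.05), and DESeq2 called 37, of which 0 were members. In nuclei, Scr against control gave 0.0% called and 916 loci at an unadjusted p below 0.05. The log2 difference of Pcmt1 there was -0.16 (SE 0.32, adjusted p = 0.995).

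The compartments were compared over control and Scr samples, without the miR-92b samples. The whole cell control and Scr samples were the comparison side in the choice of Pcmtd1. Low values there favoured that choice, so the compartment tests of Pcmtd1 are not independent of it. Pcmt1 had a lower mean in nuclei (340 ± 53.1, n = 6) than in whole cells (543 ± 182, n = 6), Pcmtd1 had 638 ± 115 and 534 ± 103, and Pcmtd2 had 229.7 ± 92.9 and 195 ± 50.2. The log2 difference of Pcmt1 was -0.57 (SE 0.23, 95% interval -1.04 to -0.10), which missed the threshold by limma (adjusted p = 0.0817). By edgeR it was -0.66 (adjusted p = 0.0403) and by DESeq2 -0.63 (adjusted p = 0.0432), and both called it. Of all 15579 loci, edgeR called 2721 and DESeq2 3413 in this comparison. Pcmtd1 differed by 0.26 (SE 0.20, interval -0.15 to 0.67, limma adjusted p = 0.397) and Pcmtd2 by 0.19 (SE 0.24, interval -0.31 to 0.69, adjusted p = 0.631). Thus 0 of the 3 members were called by limma, with 1 at an unadjusted p below 0.05, where limma called 19.2% of all loci (11.6% lower and 7.61% higher in nuclei). An exact permutation test of each locus over the 12 samples gave p = 0.0996 for Pcmt1, 0.130 for Pcmtd1 and 0.491 for Pcmtd2 (two-sided, not adjusted).

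Whole cell Scr sample 1 decided the call of Pcmt1 by limma with equal sample weights. With the sample kept, limma with estimated sample weights called Pcmt1 (-0.77, adjusted p = 0.00192), as edgeR and DESeq2 did. The count of 182.4 in that sample was below all 6 nuclear samples, while the other 5 whole cell samples were above all of them. Without that sample the log2 difference was -0.85 (limma adjusted p = 0.00152). The sample was singled out by its Pcmt1 value, so that p-value is no test. In that library the sums of nuclear RNAs (73687) and cytoplasmic mRNAs (42066) lay within the range of the other whole cell samples. Other loci were low in it as well, as given below for those most like Pcmt1. The part of the library in the result was not tested. Nup43, on the opposite strand of the Pcmt1 region, had means of 55.5 in nuclear control, 104 in nuclear Scr, 190 in whole cell control and 128 in whole cell Scr. Its part in the Pcmt1 values was not tested.

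Within single treatments the compartment differences were uneven. In control, all nuclear samples of Pcmt1 were below all whole cell samples, which 19.4% of all loci shared, and the log2 difference was -0.85 (SE 0.32, limma adjusted p = 0.0999). In Scr it was -0.30 (SE 0.32, adjusted p = 0.633) and in miR-92b -0.33 (SE 0.32, adjusted p = 0.539). For Pcmtd2 the values were 0.61 in control (SE 0.34, adjusted p = 0.303), -0.23 in Scr (SE 0.34, adjusted p = 0.735) and 0.13 in miR-92b (SE 0.34, adjusted p = 0.841). The value in control was 0.25 without nuclear control sample 3 and 0.997 without nuclear control sample 1, and the average over control and Scr was 0.0075 and 0.38 without these samples. Pcmtd1 differed by 0.07 in control (SE 0.28, adjusted p = 0.921) and by 0.44 in Scr (SE 0.28, adjusted p = 0.370). Within a treatment 0 members were called by limma, edgeR or DESeq2, with Pcmt1 in control the 1 value at an unadjusted p below 0.05, and limma called 9.85% of loci in control, 5.17% in Scr and 13.3% in miR-92b. Whether the compartment difference itself differed between control and Scr was tested in the same model, and it did not pass for Pcmtd1 (adjusted p = 0.914), Pcmtd2 (adjusted p = 0.886) or Pcmt1 (adjusted p = 0.896).

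Members were also compared with each other within each sample, since their ratio does not depend on the size factor. Pcmtd1 over Pcmt1 had a mean log2 ratio of 0.90 ± 0.42 in nuclei and 0.07 ± 0.81 in whole cells (n = 6 each), a difference of 0.83 (two-sided exact permutation test, p = 0.0563, adjusted over 3 pairs p = 0.166). Pcmtd2 over Pcmt1 had -0.63 ± 0.33 and -1.39 ± 1.02, a difference of 0.76 (exact permutation p = 0.110, adjusted p = 0.166). Neither passed the test. Without whole cell Scr sample 1 the differences were 1.13 and 1.16, each with an adjusted exact permutation p of 0.00325. This is the smallest value that this number of samples allows for 2 of 3 pairs. That sample was singled out by its low count of Pcmt1, the divisor of both ratios, so these p-values are no test. Ratios with Pcmtd1 also hold whole cell values that took part in its choice. Pcmtd1 over Pcmtd2 differed by 0.07 between compartments (exact permutation p = 0.831), with 1.53 ± 0.67 in nuclei and 1.46 ± 0.35 in whole cells.

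By FPKM, Pcmt1 had the highest value of the 3 members in the sequenced RNA of most samples outside the whole cell miR-92b group. Levels in the cell were not measured by these shares. Of the summed FPKM of the 3 loci, Pcmt1 held 43.0% to 66.2% as group means in those 5 groups, Pcmtd1 19.4% to 38.9% and Pcmtd2 14.4% to 28.7%. Pcmt1 had the largest share in 11 of the 15 samples, Pcmtd1 in 3 and Pcmtd2 in 1. In whole cell miR-92b samples, Pcmtd1 held 63.4%, 82.5% and 51.5% in samples 1, 2 and 3, with a mean of 65.8% ± 15.6, and had the largest share in 3 of 3. Pcmt1 held 26.8% ± 16.4 and Pcmtd2 7.39% ± 1.03 there, while their own counts overlapped with those of the Scr samples.

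**Figure D3:**
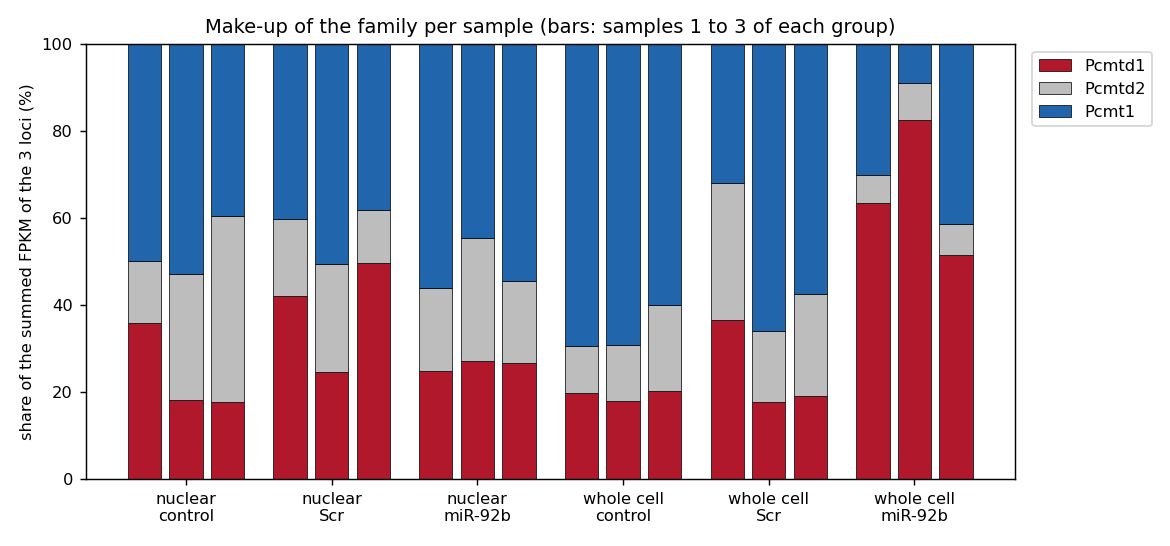
Share in percent of the summed FPKM of the 3 loci that Pcmtd1, Pcmtd2 and Pcmt1 held in each of the 18 samples, as stacked bars in order of group and sample number. Pcmtd1 takes 51.5% to 82.5% in whole cell miR-92b samples, and Pcmt1 takes the largest share in 11 of the other 15 samples.

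The loci most like each member were found by Pearson correlation of log2(normalized count + 1) over the 18 samples, which share libraries and size factors. For Pcmtd1 these were Rbfox2, a splicing regulator (r = 0.88), the noncoding RNA 1700020I14Rik (0.83), Serinc1, a membrane protein tied to serine incorporation into lipids (0.81), Fam220a (0.80) and the cyclin-dependent kinase Cdk17 (0.77). Rbfox2 had normalized counts of 2772, 4906 and 2490.1 in whole cell miR-92b samples and a mean of 1479 ± 258 with whole cell Scr. Like Pcmtd1, it was highest in sample 2. Over the 15 samples without this group the same 5 loci had correlations of -0.26, -0.01, 0.11, -0.10 and 0.02, so their likeness to Pcmtd1 rested on the 3 samples that chose it.

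Pcmtd2 was most like Gtf2h5, a subunit of the transcription and repair factor TFIIH (r = 0.79), Pcdh15 (0.70), Ctnnbl1 (0.69), Mtmr12 (0.68) and Pigm (0.67). Gtf2h5 too was highest in nuclear control sample 3, at 506.3. Pcmt1 was most like Itm2b, an integral membrane protein (0.93), the spindle protein Tpx2 (0.89), Eef1e1, of the aminoacyl-tRNA synthetase complex (0.89), the locus of Pdia4 and Mir704 (0.87) and Megf9 (0.87). Itm2b was lowest in whole cell Scr sample 1, the low sample of Pcmt1, at 27.2 against 213.7 and 246.4 in Scr samples 2 and 3. Tpx2 (87.7), Eef1e1 (0.0), the locus of Pdia4 and Mir704 (156.1) and Megf9 (94.7) also had their lowest whole cell value in that sample. These loci were picked by their correlation with Pcmt1, which favours loci that share its low sample. Without the whole cell miR-92b samples the correlation of Itm2b with Pcmt1 was 0.95. Matches to the seed of miR-92b were searched in those of these loci that had a complete coding transcript with a 3′ UTR. Megf9 and the noncoding 1700020I14Rik were not among them. Matches were held by 0 of 4 for Pcmtd1, 2 of 5 for Pcmtd2 (Mtmr12 and Pigm) and 0 of 4 for Pcmt1. The share was 6.58% over all genes searched in this way and 16.8% at lengths near that of Pcmtd1. Mtmr12 and Pigm had the longest 3′ UTRs of the Pcmtd2 list, at 4425 and 6129 bases. Between the members themselves r was 0.02 (Pcmtd1 and Pcmtd2), -0.02 (Pcmtd1 and Pcmt1) and -0.29 (Pcmtd2 and Pcmt1). Over the 15 samples without the whole cell miR-92b group it was 0.04, -0.39 and -0.31 in the same order.

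Genes of the pathways around the family were compared between compartments in the same model, again over control and Scr. Of 51 listed genes, 44 were tested, of which 2 were higher and 14 lower in nuclei and 28 did not pass. The median log2 difference over the 44 was -0.49, against 0.03 over all tested loci, and the 2 and 14 compare with 7.61% and 11.6% of all loci. Among genes that make and recycle AdoMet, 12 of 15 were tested. Mat2a, which makes AdoMet, was higher in nuclei by 0.59 (4997 ± 727 against 3294 ± 170.2, limma adjusted p = 0.00481). Ahcy, which clears the methylation product S-adenosylhomocysteine, was lower by -2.37 (96.1 ± 52.0 against 449.99 ± 139, adjusted p = 3.52e-05). Mtap, of the methionine salvage pathway, was lower by -1.13 (adjusted p = 0.0453) and Ahcyl1, a relative of Ahcy, by -0.49 (adjusted p = 0.0067). The other 8 did not pass, and the median was -0.34.

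Among other protein repair enzymes and carboxyl methyltransferases, 11 of 14 were tested, and 3 were lower in nuclei. Fn3krp, a kinase that removes sugar adducts from proteins, was lower by -3.44 (4.8 ± 5.3 against 49.3 ± 32.2, limma adjusted p = 0.013). Its SD in nuclei was above its mean. Ppme1, the methylesterase of the phosphatase PP2A, was lower by -0.99 (limma adjusted p = 0.00572). Icmt, which methylates prenylated proteins, was lower by -0.69 (limma adjusted p = 0.00345). The other 8 did not pass. The median of this list was -0.69, beside -0.57 for Pcmt1.

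The list of elongin-cullin ligases held ligase subunits and regulators as well as other SOCS box proteins, and 21 of its 22 genes were tested, with 1 higher and 8 lower in nuclei and a median of -0.59. Of 10 subunits and regulators, 0 were higher and 5 lower, and of 11 SOCS box proteins, Vhl included, 1 was higher and 3 were lower (Asb8, Socs6 and Socs7), a division made after the values were seen. Tceb2 (elongin B) had 14.1 ± 19.4 in nuclei and 179.7 ± 29.7 in whole cells, a difference of -4.82 (limma adjusted p = 8.76e-06). Nedd8, the modifier that activates cullins, differed by -3.51 (7.5 ± 9.6 against 58.7 ± 35.3, limma adjusted p = 0.0209). The SOCS box protein Asb8 differed by -1.93 (69.4 ± 71.0 against 195.9 ± 43.8, limma adjusted p = 0.00183). Tceb1 (elongin C) differed by -1.32 (limma adjusted p = 0.0301). For Tceb2, Nedd8 and Asb8 the SD in nuclei was above the mean, and on the log2 scale the lowest samples weigh heavily. Socs4 was higher by 0.82 (adjusted p = 0.0203). Pcmtd1 and Pcmtd2 had 0.26 and 0.19 in this comparison. Between nuclear miR-92b and nuclear Scr, 0 of the 44 genes in the 3 lists passed.

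**Figure D4:**
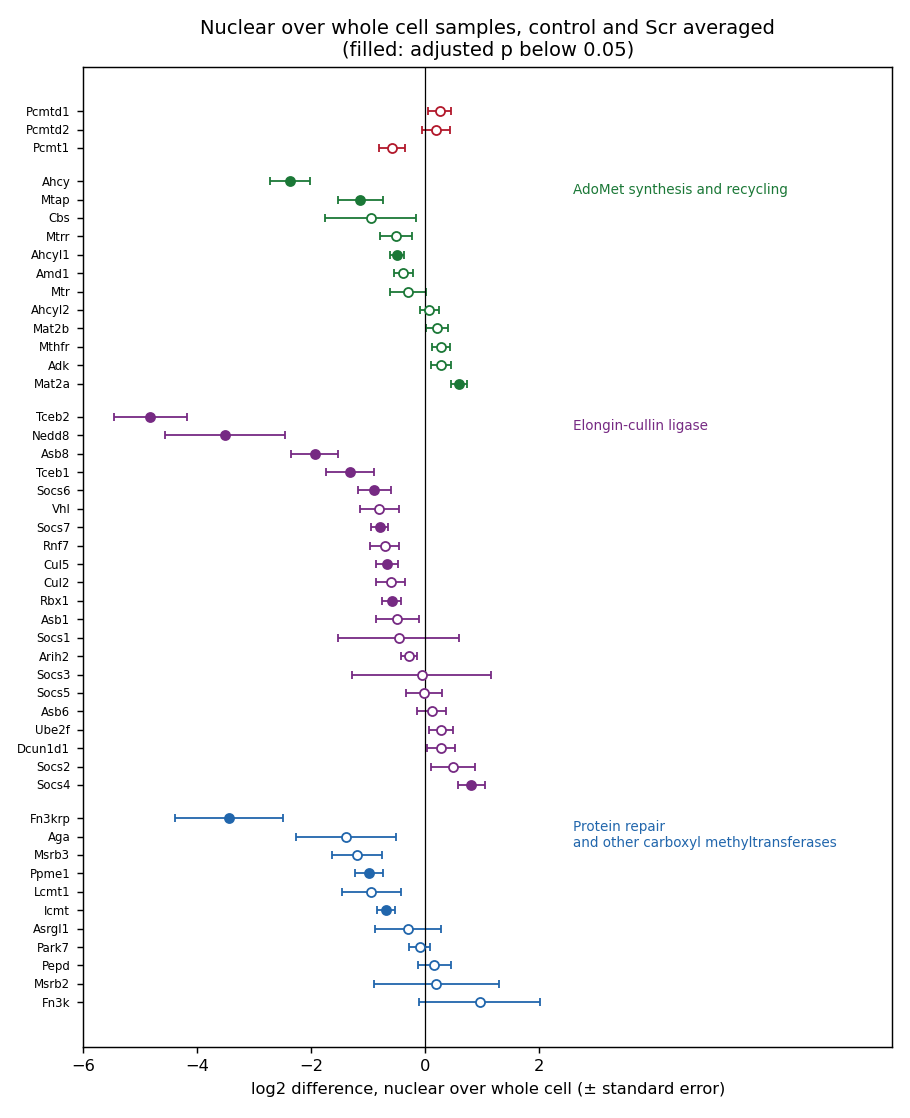
Log2 difference in normalized count, nuclear over whole cell with control and Scr averaged (horizontal axis, points with standard errors from limma), for the 3 members and the tested genes of 3 lists. Filled points passed at an adjusted p below 0.05. The 3 members are open points at 0.26, 0.19 and -0.57, and 14 of the 16 filled points lie below 0.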

How the data were processed

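RNA-seq of 18 samples in 6 groups was analysed, grouped by the sample labels. Per the labels and the study's methods, the authors trimmed reads with Trimmomatic 0.30, aligned them to GRCm38 (mm10) with TopHat2, assembled transcripts with Cufflinks and tested groups with Cuffdiff. The deposited count table is a signal, reads divided by a size factor per sample, and 99.9% of 635205 values above 0 came out as whole reads within 0.02. The deposited FPKM values are per transcript length and depth. The authors' tables of fold changes and p-values were not used. All columns of per-sample values were mapped to a sample.

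Loci without a symbol (115957, with 4.51% to 15.3% of the reads) were left out, and 15579 loci whose mean normalized count was 10 or more were tested, of which 1197 join several symbols. limma 3.58.1 (variance trend, two-sided, Benjamini-Hochberg, threshold 0.05) was fitted to log2(normalized count + 1) in 1 model of 6 groups and tested on simulated data. edgeR 4.0.16 and DESeq2 1.42.0 were run on the recovered reads. Ratios between members were compared by exact permutation over 924 splits. Named genes were the members, the 5 loci most correlated with each, and up to 4 called loci per direction and list. The members, lists and tests were chosen with earlier results of these data known, and the seed search, implied lengths, neighbouring loci and test between treatments after the values were seen. The value of 1 neuronal marker gene is not reported here.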

Additional observations from a re-analysis of the deposited data

How the results depend on the processing

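The settings varied were the pseudocount (0.5 or 8), the filter (1, 50 or none), FPKM values with a pseudocount of 0.1, equal medians, quantile normalization, only the compared groups, sample weights, the sample number as a block, edgeR, DESeq2 and each sample left out. None of the 23 tested comparisons of members was called by limma with the settings of the report. Over them 440 of 455 values kept their sign and 6 passed the threshold. The 6 were all of Pcmt1, nuclear over whole cell: averaged over control and Scr with sample weights (-0.77, adjusted p = 0.00192), edgeR (-0.66, 0.0403), DESeq2 (-0.63, 0.0432) and without whole cell Scr sample 1, and in control with only the compared groups (-0.85, 0.00479) or sample weights (-0.94, 0.000324).

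FPKM turned the sign for Pcmtd1 nuclear over whole cell in control (-0.27), Pcmtd1 whole cell Scr over control (-0.14), and Pcmtd2 nuclear over whole cell averaged (-0.050) and in miR-92b (-0.20), and moved Pcmtd1 whole cell miR-92b over Scr to 3.01. Sample weights turned Pcmtd2 nuclear miR-92b over control to 0.15. The cause was not tested.

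With each sample left out in turn, nuclear over whole cell ranged from -0.056 to 0.26 for Pcmtd1 in control, from -0.034 to 0.26 for Pcmtd2 in miR-92b, from -0.85 to -0.42 for Pcmt1 averaged and from -0.84 to 0.0071 for Pcmt1 in Scr. Whole cell Scr over control of Pcmtd1 ranged from -0.12 to 0.20. Nuclear miR-92b over control ranged from -0.52 to 0.23 for Pcmtd2 and from -0.024 to 0.24 for Pcmt1, and nuclear Scr over control of Pcmtd2 from -0.73 to 0.022. The compartment difference of the ratios ranged from -0.040 to 0.27 (Pcmtd1 over Pcmtd2), 0.69 to 1.13 (Pcmtd1 over Pcmt1) and 0.63 to 1.16 (Pcmtd2 over Pcmt1), and the 16 listed genes called from 11 to 18.

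The sample numbers are shared between groups, but correlations of deviations between same-numbered samples ran from -0.04 to 0.11, as low as between other numbers (-0.11 to 0.07), so they were not treated as pairs. With the replicate block, Pcmt1 averaged over control and Scr kept -0.57 (adjusted p = 0.0619), 15 listed genes were called and no member's call changed. With 3 samples a group, the 95% intervals of single differences reached about 0.58 to 0.71 on either side on the log2 scale. Without the whole cell miR-92b samples, the correlation of Rbfox2, the locus most like Pcmtd1 over 18 samples, turned to -0.26, and the highest correlation with Pcmtd1 was 0.82 (Plce1).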
